A study of Mus musculus with 12 samples.

Results

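The diet difference shared by resting and LPS-exposed peritoneal macrophages was measured over all 12 libraries of the series: 6 from female mice on a high fat diet (HFD) and 6 from female mice on chow. Peritoneal macrophages are phagocytes of the abdominal cavity, and LPS is a bacterial cell wall component that they sense through Toll-like receptor 4. The 4 groups, of 3 libraries each, were HFD at 0 h, chow at 0 h, HFD after 24 h of LPS and chow after 24 h of LPS. The sources used here do not give the strain, genotype or age of the mice, the composition or length of the diet or the LPS dose, and the labels do not say whether libraries come from separate animals or whether the 0 h and 24 h libraries share animals. P-values therefore reflect the spread among these libraries alone, which may be technical. The series title points to hypercholesterolemia and to the pentose phosphate pathway.

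Each gene was tested for 1 diet difference common to both times, with LPS time as an additive term, so a gene could pass without passing at either time alone. A gene is said to be called when its Benjamini-Hochberg adjusted p in edgeR's quasi-likelihood test was at most 0.05 over the 12641 genes tested, and to rise or fall in HFD only then. It is said to hold at both times when, in addition, the 3 HFD libraries all lay on the same side of the 3 chow libraries at 0 h and again at 24 h. Levels are given in CPM, a gene's count scaled to a fixed library total, and fold changes are log2 of HFD over chow, with a standard error (SE) from the model.

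As background, a macrophage that takes up more cholesterol than it needs handles it on opposite sides of its metabolism. Oxysterols made from the surplus activate the nuclear receptors LXR-alpha and LXR-beta, which switch on the exporters Abca1 and Abcg1. The same surplus keeps the transcription factor SREBP2 in the endoplasmic reticulum, and with it the genes of the mevalonate pathway and of sterol synthesis stay low.

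Depth differed between libraries. HFD 0 h replicate 3 had the lowest total, 2360244 counts, with 9135057 in the next (HFD 0 h replicate 2) and 20688308 in the deepest (HFD 24 h replicate 3). At the lowest depth 3 counts equal 1.27 CPM, and at the highest 0.145 CPM. HFD 0 h replicate 3 also stood alone on the second principal component, at -82.16. HFD 24 h replicate 1 and all 3 chow 24 h libraries carry a lane 8 tag in their labels, and no other library does. Macrophage markers were abundant in every library (Adgre1 180 to 913 CPM, Csf1r 814 to 1127 CPM, Cd68 2290 to 3757 CPM), while the T cell marker Cd3e did not pass 1.75 CPM. Summed marker lists of other cells were not at 0, with 376 to 941 CPM over 15 genes of T and NK cells, 236 to 542 CPM over 13 genes of B cells and 1042 to 4152 CPM over 25 genes of mesothelium, fibroblasts and endothelium.

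In macrophages of HFD-fed mice, 3 of 13 tested LXR receptors and cholesterol efflux targets (Abca1, Abcg1 and Pltp) were called higher than in those of chow-fed mice. Of the genes of cholesterol synthesis 1 of 10 in the mevalonate pathway and 3 of 12 from squalene onwards were called lower. Abcg1 was 1.98-fold higher and Sqle, the squalene epoxidase of sterol synthesis, was at 0.483 of its chow level. Inflammatory effectors such as Acod1 and Ptges, the chemokine receptor Ccr7 and matrix genes such as Bgn and Timp1 were lower as well. In all, 51 genes (0.403% of those tested) were called, 22 higher (0.174%) and 29 lower (0.229%) in HFD. Of these, 45 (0.356% of the genes tested) held at both times, 20 higher and 25 lower. The difference was at least 2-fold for 7 of the genes that rose and 10 of those that fell, and the smallest called difference was 0.458 on the log2 scale. At an unadjusted p below 0.05 the test passed 1547 genes (12.2%). The labels give the 0 h and 24 h libraries of a diet the same numbers, and if a number marks an animal, the test counts each animal at both times. With means per number, which leaves 3 against 3, 0 genes were called (lowest adjusted p 0.111, with 1017 genes at an unadjusted p below 0.05), and with the number as a random block 39 were.

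The number of calls depended on single libraries of both diets. It was 30 without HFD 0 h replicate 1 and 77 without HFD 24 h replicate 3. It was 18, 24 and 102 without chow 0 h replicates 1, 2 and 3, and 25 and 124 without chow 24 h replicates 1 and 3, while each of the other 5 omissions gave 34 to 72. Without both libraries of an HFD label number 46 to 87 genes were called. Without both libraries of chow label number 1, or both of chow label number 2, no gene was called in edgeR's test (lowest adjusted p 0.0531 and 0.0631, with 876 and 1138 genes at an unadjusted p below 0.05), and without both of chow label number 3 there were 368 calls. Of the 51 genes, 17 kept their call in all 12: Ace, Mexis, Tspan7, Abcg1, Mcoln3, Mamdc2, Hebp1 and Rragd higher in HFD, and Maf, Prdx1, Ptges, Lyz1, Il21r, Acod1, Bgn, Ccr7 and Timp1 lower.

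**Figure D1:**
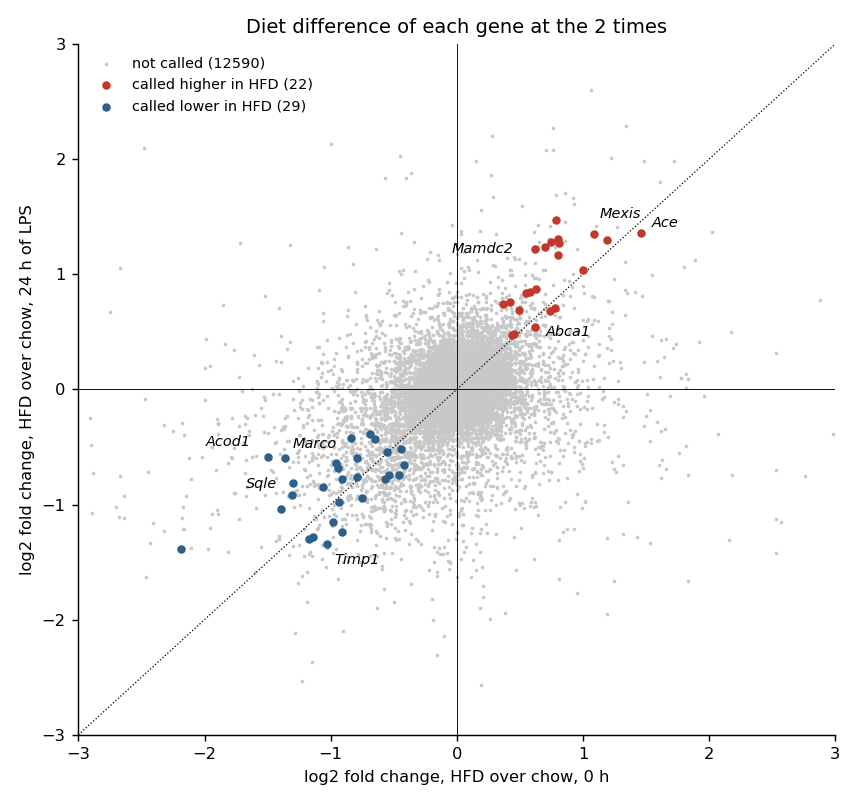
Diet difference of each gene (log2 fold change, HFD over chow) at 0 h on the horizontal axis and after 24 h of LPS on the vertical axis, with called genes in colour and equal values on the dotted line. The called genes lie in the quadrants where both times have the same sign; 30 genes, 1 of them called, lie beyond the limits of 3.

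The 51 genes were largely invisible at a single time. Of them, 49 were called neither at 0 h nor at 24 h. At 0 h edgeR called 11 genes, all lower in HFD (0.087%), of which Acod1 alone was also called over both times. After 24 h of LPS 1 gene (0.00791%), Mamdc2, was called, higher in HFD. All 51 had the same sign at both times, which the choice of genes by a common difference favours, and so did 61.0% of all genes tested. Across genes, which are not independent replicates, the diet differences at the 2 times had a Pearson correlation of 0.318 and a Spearman correlation of 0.319. Without regard to the call, the HFD and chow libraries did not overlap at either time, in the same direction, for 250 genes (1.98%; 132 or 1.04% higher and 118 or 0.933% lower in HFD), and in opposite directions for 22 (0.174%). If the label numbers shared by the 2 times mark animals, differences between single animals would also favour such agreement of the times. Their part in these values was not tested. The test of the interaction, which asks whether the diet difference changed between the times, called 0 genes (lowest adjusted p 0.0805, with 297 genes or 2.35% at an unadjusted p below 0.05). Acod1, Mamdc2 and Marco were the 3 called genes at an unadjusted interaction p below 0.05, at 0.00199, 0.0165 and 0.0437.

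On the export side, Abca1 and Abcg1 rose in HFD at both times. Abca1, which loads cholesterol onto lipid-poor apolipoprotein A-I, lies on chromosome 4 (53030789 to 53159988, GRCm38.p6). At 0 h it had 408, 595 and 337 CPM in HFD libraries and 300, 265 and 309 CPM in chow libraries. After LPS it had 769, 809 and 840 CPM in HFD libraries and 557, 552 and 548 CPM in chow libraries. The diets did not overlap at either time, and the 3 HFD libraries at 24 h were the highest of all 12. Its common difference was 0.58 ± 0.11 (log2, SE, 6 libraries per diet; adjusted p = 0.0255), with 0.54 at 24 h and 0.62 at 0 h. Its call ended without chow 0 h replicate 1 (adjusted p = 0.066), chow 0 h replicate 2 (0.0948), chow 24 h replicate 1 (0.058) or chow 24 h replicate 2.

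The promoter of Abca1 is shown for its known element, a direct repeat of the kind that LXR binds with its partner RXR. The motif searched (GGTNA, 5 bases of any kind, then GGTCA, on either strand) was written with that element in mind, so its match in Abca1 was given by the choice. The windows of the other 16 called-higher genes with a promoter in RefSeq's table, Pltp among them, hold no match, and 20 of 10032 tested genes do (0.199%). The window is chr4:53159896-53160145 on the minus strand, printed in the direction of the gene, with the motif in capitals. It reads as its reverse complement and begins 67 bases before the start in the promoter table. That start lies inside the gene span given above, so the end of the window, the motif included, overlaps the span.
Abca1: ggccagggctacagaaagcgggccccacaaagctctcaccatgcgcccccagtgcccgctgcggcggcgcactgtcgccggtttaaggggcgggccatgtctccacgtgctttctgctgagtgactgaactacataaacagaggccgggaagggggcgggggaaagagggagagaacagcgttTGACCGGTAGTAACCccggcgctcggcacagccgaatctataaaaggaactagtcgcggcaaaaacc

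Abcg1, which moves cholesterol to high density lipoprotein, had 562, 675 and 500 CPM in HFD libraries at 0 h, against 309, 326 and 365 CPM in chow libraries. LPS left it at 368, 561 and 283 CPM in HFD libraries, against 188, 158 and 194 CPM in chow libraries. The diets did not overlap at either time, and the HFD libraries at 24 h spread more widely than the chow ones. The common difference was 0.98 ± 0.14 (adjusted p = 0.0102), with 1.17 at 24 h and 0.80 at 0 h. Abca1 and Abcg1 moved in opposite directions with LPS in the same model (log2 fold change of 24 h over 0 h, 0.88 for Abca1 and -0.71 for Abcg1), yet both were higher in HFD at both times.

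Mexis, a noncoding RNA that in mouse macrophages is known to amplify LXR-dependent expression of Abca1, is transcribed from the same stretch of chromosome 4 (53261356 to 53270232). It had 45.9, 52.9 and 38.3 CPM in HFD libraries at 24 h, against 16.6, 16.1 and 21.2 CPM in chow libraries. At 0 h it had 9.78, 15.7 and 3.15 CPM in HFD libraries, against 5.23, 5.19 and 4.57 CPM in chow libraries. Its groups were apart at 24 h and overlapped at 0 h, where HFD 0 h replicate 3, the shallowest library, was the lowest of the 6. The common difference was 1.24 ± 0.20 (adjusted p = 0.0114).

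Pltp, which transfers phospholipid between lipoproteins, rose by 0.71 ± 0.12 (adjusted p = 0.0139) and held at both times, at 791, 948 and 600 CPM in HFD libraries against 446, 411 and 549 CPM in chow libraries at 0 h. Its call ended without chow 0 h replicate 1 (adjusted p = 0.0508) or replicate 2 (0.0562), and its span overlaps that of Ctsa, so reads there cannot be told apart where strand is not known. Eepd1, reported in mouse macrophages as an LXR target that promotes efflux, rose by 0.59 ± 0.12 (adjusted p = 0.0366) and is named after its values were seen, as it is on no list, and it was called in 4 of the 12 omissions. Of the 13 tested genes of LXR receptors and efflux targets, Abca1, Abcg1 and Pltp rose and none fell. In all 11 of the 13 were above 0, and the median was 0.10, against 0.01 over all genes. The receptors themselves, Nr1h3 (0.10 ± 0.11, adjusted p = 0.805) and Nr1h2 (0.10 ± 0.12, adjusted p = 0.82), and the LXR target Apoe (0.04 ± 0.16, adjusted p = 0.958) did not pass. Mylip, an LXR-induced ubiquitin ligase, was at 0.64 ± 0.19 (adjusted p = 0.154).

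**Figure D2:**
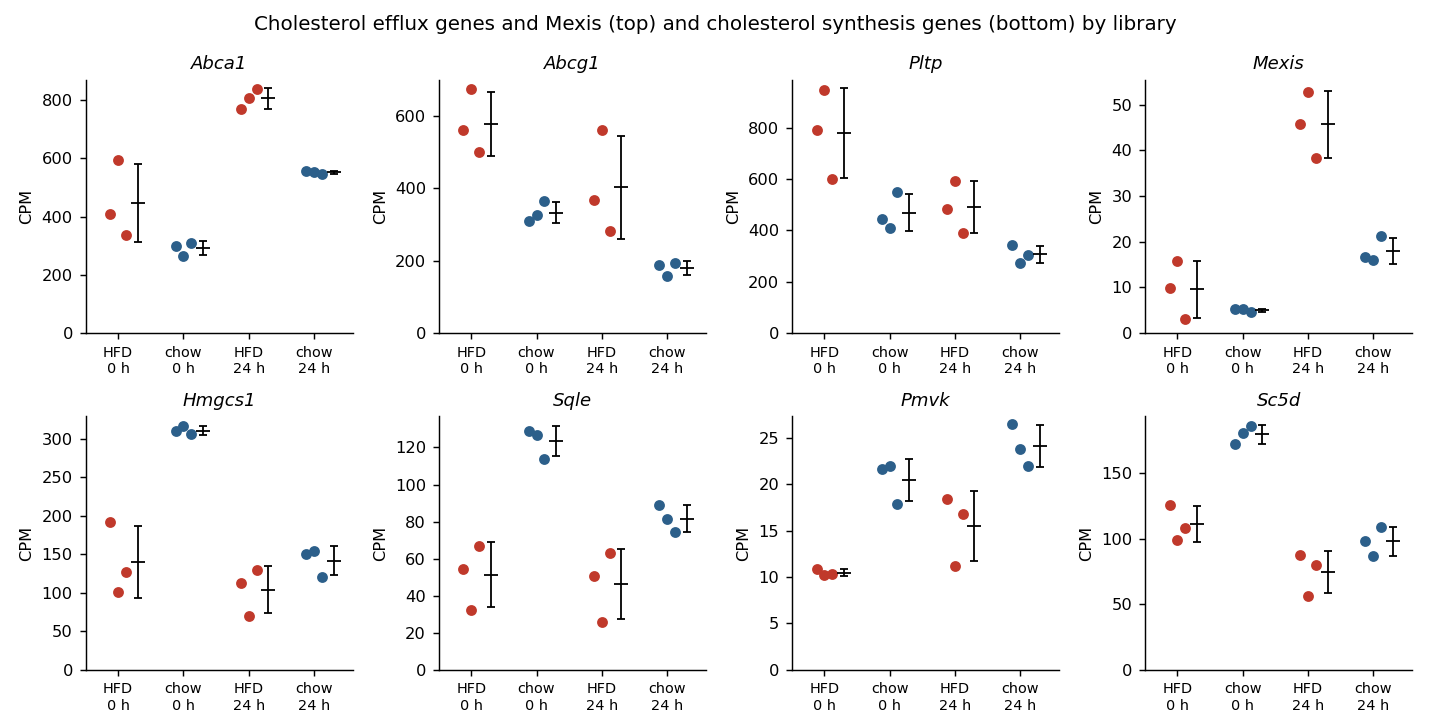
CPM of 4 genes of the export side (top) and 4 genes of cholesterol synthesis (bottom) in each of the 12 libraries, HFD in red and chow in blue; each point is a library, and the bar beside each group is its mean with 1 SD (n = 3). The diets overlap in 3 of the 16 comparisons, for Mexis at 0 h and for Sc5d and Hmgcs1 at 24 h; Hmgcs1 was not called.

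On the synthesis side, Sqle, Pmvk and Sc5d fell in HFD. Sqle, squalene epoxidase, which commits squalene to sterols, had 54.5, 32.2 and 67.0 CPM in HFD libraries at 0 h, against 129, 127 and 114 CPM in chow libraries. Its values at 24 h were 50.6, 25.8 and 62.9 CPM in HFD libraries, against 89.0, 81.3 and 74.5 CPM in chow libraries. The diets did not overlap, and replicate 2 was the lowest HFD library at both times. The common difference was -1.05 ± 0.20 (adjusted p = 0.0324), and 6 of the 12 omissions of 1 library ended the call, with adjusted p up to 0.0862 (without chow 0 h replicate 1).

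Pmvk, phosphomevalonate kinase of the mevalonate pathway, was at 10.9, 10.2 and 10.3 CPM in HFD libraries at 0 h, against 21.6, 22 and 17.9 CPM in chow libraries, and its common difference was -0.79 ± 0.14 (adjusted p = 0.0138). Its call ended without chow 0 h replicate 1 (adjusted p = 0.0508). Sc5d, which introduces a double bond late in sterol synthesis, was at -0.54 ± 0.11 (adjusted p = 0.0416) and overlapped at 24 h, where HFD libraries had 87.7, 56.6 and 79.9 CPM and chow libraries 97.9, 87.1 and 109 CPM. Its call was made in 4 of the 12 omissions, with adjusted p up to 0.121.

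Most other genes of the pathway lay on the same side, most of them without passing. Of 10 tested genes of the mevalonate pathway 1 was called lower and 9 were below 0, with a median of -0.67 (-0.42 at 24 h, -0.87 at 0 h). Of 12 genes from squalene to cholesterol 3 were called lower, Sqle and Sc5d among them, and all 12 were below 0, with a median of -0.58 (-0.31 at 24 h, -0.88 at 0 h). Over all genes 48.8% were below 0 and the median was 0.01. Hmgcs1, the synthase early in the mevalonate pathway (-0.79 ± 0.18, adjusted p = 0.0756), Msmo1 (-0.62 ± 0.14, adjusted p = 0.072) and Cyp51 (-0.86 ± 0.20, adjusted p = 0.0811) were apart at 0 h and overlapped at 24 h. Summed over the 12 genes from squalene to cholesterol, HFD libraries had 697, 481 and 680 CPM at 0 h, against 1297, 1283 and 1136 CPM in chow libraries. At 24 h the sum was 663, 393 and 723 CPM in HFD libraries, against 833, 860 and 788 CPM in chow libraries. Of 13 genes of SREBP2 control and sterol uptake 0 were called, with a median of -0.34. These lists were chosen with the 0 h values of the same libraries already known, so their direction is not independent evidence.

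The promoters of these enzymes share a short box. CCAAT, the letters bound by the NF-Y complex that acts beside SREBP2, was found on either strand in 16 of 17 genes of the mevalonate pathway and sterol synthesis with a promoter in the table (94.1%), against 4311 of 10032 tested genes (43.0%), in windows of 250 bases before to 50 after the start. It stood in 10 of 23 called-lower genes (43.5%) and in 10 of 17 called-higher genes (58.8%). One sterol response element form, TCACNCCAC, was found in 1 of the 17 (5.88%), against 1.36% of all. The windows below show, in the direction in which the box reads CCAAT (capitals), the match nearest the start of the called genes Pmvk (chr3:89454393-89454421, plus strand) and Sc5d (chr9:42264308-42264336, plus strand) and of the uncalled genes Hmgcs1 (chr13:119690294-119690322, minus strand), Cyp51 (chr5:4104710-4104738, minus strand) and Msmo1 (chr8:64733617-64733645, minus strand), all in GRCm38.p6. The match lies 136, 24, 45, 29 and 55 bases before the start of the 5 genes in that order.
Pmvk: aactcaggttggCCAATtcacagcatcta
Sc5d: gcaggcagccggCCAATcagcagccggcg
Hmgcs1: atccgctttcagCCAATgagaggcgggga
Cyp51: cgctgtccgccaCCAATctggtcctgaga
Msmo1: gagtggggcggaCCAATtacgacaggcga

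Other lipid genes showed no call. Among 18 genes of fatty acid synthesis, elongation and desaturation 0 were called, with 14 below 0 and a median of -0.28. Fads2, a desaturase, came closest (-1.23 ± 0.26, adjusted p = 0.0529), before the elongase Elovl6 (-0.92 ± 0.20, adjusted p = 0.0565). Of 36 genes of fatty acid oxidation and PPAR targets 0 were called, with 29 above 0 and a median of 0.18. Of 21 genes of foam cells and lipid-associated macrophages 0 were called, with a median of 0.06. Trem2, a lipid-sensing receptor of that list, was at 0.35 ± 0.10 (adjusted p = 0.134), and Gpnmb, abundant at 10004 to 25264 CPM, was at 0.33 ± 0.09 (adjusted p = 0.115).

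The pentose phosphate pathway, which makes NADPH and ribose from glucose-6-phosphate, had 0 called genes among 12 tested, 6 of them above 0 and a median of 0.01. G6pdx, its first enzyme, had 249, 190 and 126 CPM in HFD libraries and 190, 201 and 249 CPM in chow libraries at 0 h. Its 24 h values were 286, 265 and 299 CPM in HFD libraries and 283, 269 and 350 CPM in chow libraries, so the diets overlapped at both times. Its common difference was -0.12 ± 0.13 (adjusted p = 0.779). Pgd was at -0.27 ± 0.10 (adjusted p = 0.248), Tkt at -0.30 ± 0.12 (adjusted p = 0.306), Taldo1 at -0.11 ± 0.11 (adjusted p = 0.749) and H6pd at -0.03 ± 0.09 (adjusted p = 0.938).

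**Figure D3:**
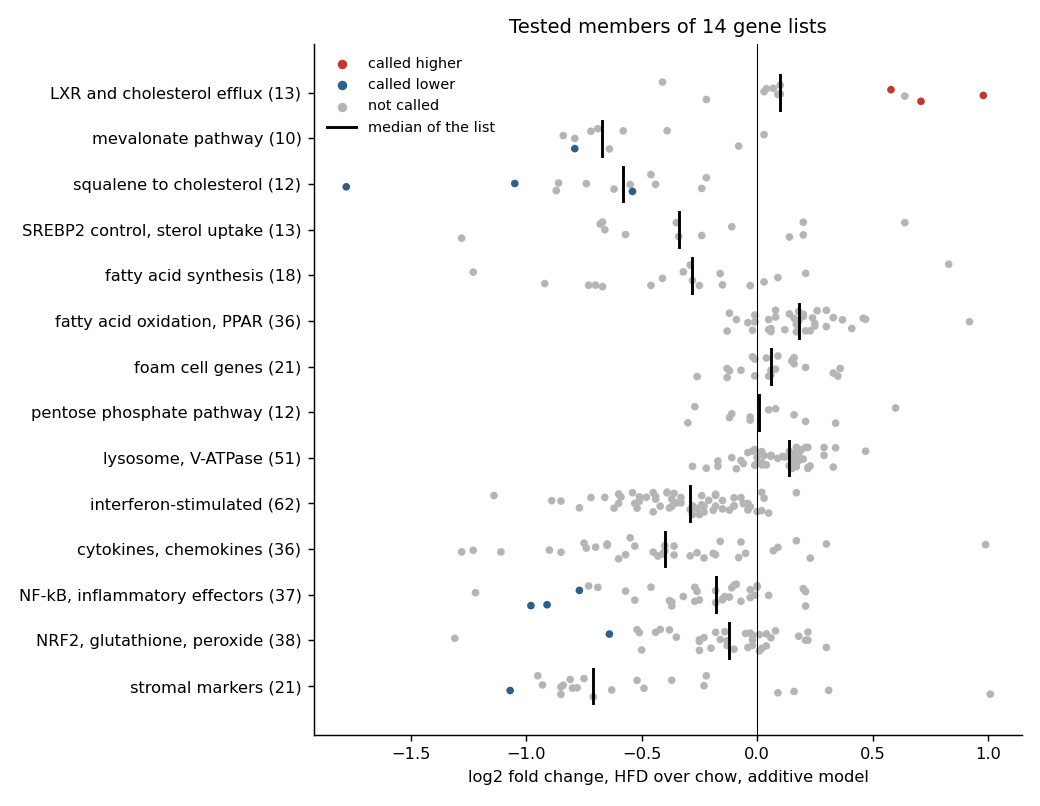
Additive log2 fold change (HFD over chow) of every tested member of 14 gene lists, with the number tested in brackets; red and blue points are called higher and lower, grey points are not called, and the black line is the median of the list. The called genes of the efflux list are Abca1, Abcg1 and Pltp, and Sqle and Sc5d are called in the list of sterol synthesis.

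Among inflammatory genes, several effectors were lower in HFD at both times. Acod1, which makes the antimicrobial metabolite itaconate, had 15.2, 12.8 and 20.2 CPM in HFD libraries at 0 h, against 42.5, 51.5 and 36.3 CPM in chow libraries. After LPS, which raises it steeply, it had 2372, 1993 and 2713 CPM in HFD libraries, against 3380, 3348 and 3929 CPM in chow libraries. The diets did not overlap at either time. Over both times the difference was -0.98 ± 0.16 (adjusted p = 0.0133), with -0.59 at 24 h and -1.50 at 0 h, and its interaction did not pass after adjustment.

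Ptges, the microsomal prostaglandin E synthase, had 248, 193 and 224 CPM in HFD libraries at 24 h, against 371, 433 and 319 CPM in chow libraries, and a common difference of -0.77 ± 0.13 (adjusted p = 0.0138). Marco, a scavenger receptor for bacteria, fell by 0.91 ± 0.19 (adjusted p = 0.0379), with 2.70 to 9.35 CPM in HFD libraries and 14.4 to 19.9 CPM in chow libraries at 0 h. Its call was made in 4 of the 12 omissions, with adjusted p up to 0.104. These 3 were the called members of 37 genes of inflammatory effectors and NF-kB feedback, of which 33 were below 0, with a median of -0.18. Nos2, the inducible nitric oxide synthase, was at 119, 257 and 261 CPM in HFD libraries at 24 h, against 492, 505 and 656 CPM in chow libraries. At 0 h it was near 0 in both diets, and over both times it did not pass (adjusted p = 0.183).

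Single receptors were among the genes that fell. Ccr7, the chemokine receptor for migration to lymph nodes, had 14, 15 and 15.3 CPM in HFD libraries at 24 h, against 32.6, 27.4 and 24.2 CPM in chow libraries. Its common difference was -1.09 ± 0.19 (adjusted p = 0.0138). Il21r, the interleukin 21 receptor, was at -0.83 ± 0.13 (adjusted p = 0.0108), C5ar1, the receptor of complement fragment C5a, at -0.70 ± 0.14 (adjusted p = 0.0359), and Cd72, an inhibitory lectin, at -0.84 ± 0.15 (adjusted p = 0.0138). The call of C5ar1 ended in 6 of the 12 omissions (adjusted p up to 0.099) and that of Cd72 in 2 (up to 0.066). Stab1, a scavenger receptor that clears apoptotic cells, fell by 0.54 ± 0.11 (adjusted p = 0.0366; called in 4 of the 12 omissions), and its span overlaps that of Nt5dc2. Marco and Stab1 were the 2 called members of 27 scavenger and efferocytosis receptors. Of that list 13 were above 0 and 14 below, with a median of -0.01. Lyz1, a lysozyme, was at -0.81 ± 0.13 (adjusted p = 0.0114), but it shares much of its sequence with the far more abundant Lyz2 (3800 to 11050 CPM), so how reads were split between them is uncertain. Prdx1, a peroxide-reducing enzyme, was the 1 called member of 38 NRF2, glutathione and peroxide genes. It had 978, 948 and 740 CPM in HFD libraries at 24 h, against 1545, 1590 and 1305 CPM in chow libraries, and a common difference of -0.64 ± 0.10 (adjusted p = 0.0108).

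Lyz1 was also the 1 called member of 25 genes of large peritoneal macrophage identity, of which 18 were below 0, with a median of -0.29. Summed over the list, HFD libraries had 4565, 4517 and 4462 CPM at 0 h, against 5285, 5611 and 4941 CPM in chow libraries. At 24 h the sum was 7232, 7379 and 6504 CPM in HFD libraries, against 9038, 9579 and 8437 CPM in chow libraries. The sums of the diets did not overlap at either time, but a sum is carried by its most abundant members. Lyz1 was the 1 member whose own values did not overlap at either time. Gata6 (-0.64 ± 0.25, adjusted p = 0.289) overlapped at both times. Adgre1 (-0.23 ± 0.16, adjusted p = 0.63) was at 0.13 at 24 h, where the diets overlapped, and at -0.60 at 0 h, where they did not.

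Maf, a transcription factor of resident macrophages, and Trex1, which degrades cytosolic DNA, are named after their values were seen. Maf had 57.9, 61.9 and 59.8 CPM in HFD libraries at 24 h, against 109, 99.2 and 91.6 CPM in chow libraries. Its common difference was -0.60 ± 0.10 (adjusted p = 0.0114). Trex1 was at -0.60 ± 0.11 (adjusted p = 0.0219), and its call ended without HFD 0 h replicate 1 or chow 0 h replicate 1 (adjusted p up to 0.0677). The spans of Cd72, Prdx1 and Trex1 overlap those of Tesk1, AV051173 and Atrip-trex1, so shared reads cannot be told apart there.

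Interferon-stimulated genes and cytokines gave no call over both times. Of 62 interferon-stimulated genes 56 were below 0, with a median of -0.29 (-0.16 at 24 h, -0.43 at 0 h), and 0 were called. Oasl1 (-0.59 ± 0.13, adjusted p = 0.0529) and Ifi27l2a (-1.14 ± 0.25, adjusted p = 0.0645) came closest. Some genes called at 0 h alone were near 0 at 24 h. Irf7, the master regulator of interferon production, was at -0.12 at 24 h and -1.24 at 0 h, Zbp1 at -0.02 and -1.12, and Ccl5 at -0.01 and -1.25. The additive difference averages these and did not pass for Irf7 (adjusted p = 0.136), Zbp1 (0.282) or Ccl5 (0.182). Of 36 cytokines and chemokines 30 were below 0, with a median of -0.40 and 0 calls. Ccl2, the monocyte attractant, was at -0.55 ± 0.14 (adjusted p = 0.102), Tnf at -0.26 ± 0.16 (adjusted p = 0.562) and Il1b at -0.53 ± 0.31 (adjusted p = 0.539).

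Further lists held few calls or none. Of 21 complement genes 1 was called, C5ar1, and 18 were below 0, with a median of -0.28. Of 51 lysosome and V-ATPase genes 0 were called and 38 were above 0, with a median of 0.14. Markers of small peritoneal macrophages, monocytes and dendritic cells had 0 calls among 15 tested, with 12 below 0 and a median of -0.23. Their sum over 18 genes overlapped at 0 h (HFD 955 to 1220 CPM, chow 1080 to 1380 CPM) and at 24 h (HFD 521 to 673 CPM, chow 492 to 733 CPM). The part of such cells in the result was not tested. Lists of glycolysis and HIF1 targets (35 tested), MHC class I (25) and class II (12) presentation, Toll-like receptors and LPS signalling (25), the cell cycle (40), the respiratory chain (49), cytosolic ribosomal proteins (49), sphingolipid metabolism (27) and the circadian clock (16) also had 0 calls, with medians from -0.11 to 0.08.

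Besides the export genes, those higher in HFD had varied roles. Ace, angiotensin-converting enzyme, had the largest rise, at 18.6, 24.4 and 18 CPM in HFD libraries and 6.26, 7.13 and 8.90 CPM in chow libraries at 0 h. Lower values followed at 24 h, with 2.45, 5.32 and 2.91 CPM in HFD libraries and 1.64, 1.44 and 1.11 CPM in chow libraries. The diets did not overlap at either time, and the common difference was 1.42 ± 0.20 (adjusted p = 0.0102). Mamdc2, an extracellular proteoglycan, had 695, 573 and 621 CPM in HFD libraries and 335, 389 and 501 CPM in chow libraries at 0 h. At 24 h it had 39.2, 35.9 and 36.2 CPM in HFD libraries and 13.6, 15.8 and 18.4 CPM in chow libraries. Its common difference was 0.90 ± 0.13 (adjusted p = 0.0102), with 1.22 at 24 h and 0.62 at 0 h.

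Other genes that rose have products at the lysosome, whose list as a whole held no call (0 of 51). Mcoln3, a cation channel of endosomes and lysosomes, was at 0.95 ± 0.15 (adjusted p = 0.0108), and its span overlaps that of Wdr63. Rragd, a GTPase that recruits mTORC1 to the lysosome, was at 0.69 ± 0.11 (adjusted p = 0.0127). Naglu, which degrades heparan sulfate in lysosomes, was at 0.46 ± 0.10 (adjusted p = 0.0452), with 286, 327 and 347 CPM in HFD libraries and 223, 241 and 241 CPM in chow libraries at 0 h. Rragd and Naglu are named after their values were seen.

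Further genes of the rule that rose were Sfrp5, a secreted Wnt antagonist (1.08 ± 0.20), Hnmt, which methylates histamine (1.02 ± 0.21), the tetraspanin Tspan7 (1.02 ± 0.17), the kinase scaffold Ksr2 (1.0 ± 0.18), the growth factor Pdgfa (0.75 ± 0.15), the phosphatase and transcription cofactor Eya1 (0.74 ± 0.14) and the haem-binding Hebp1 (0.72 ± 0.12). Their adjusted p in edgeR's test ran from 0.0135 (Tspan7) to 0.0345 (Hnmt). Tspan7 and Hebp1 kept the call in all 12 omissions of 1 library, and the others in 5 to 10. The remaining genes that rose, named after their values were seen, were Cdo1, cysteine dioxygenase (1.25 ± 0.24), the hypoxia factor Epas1 (0.59 ± 0.12), the thyroid hormone deiodinase Dio2 (0.46 ± 0.08), Tmem268 (0.56 ± 0.11) and Gm14461 (0.99 ± 0.20). Epas1 overlapped at 0 h. These 5 were called in 5 to 11 of the 12 omissions.

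**Figure D4:**
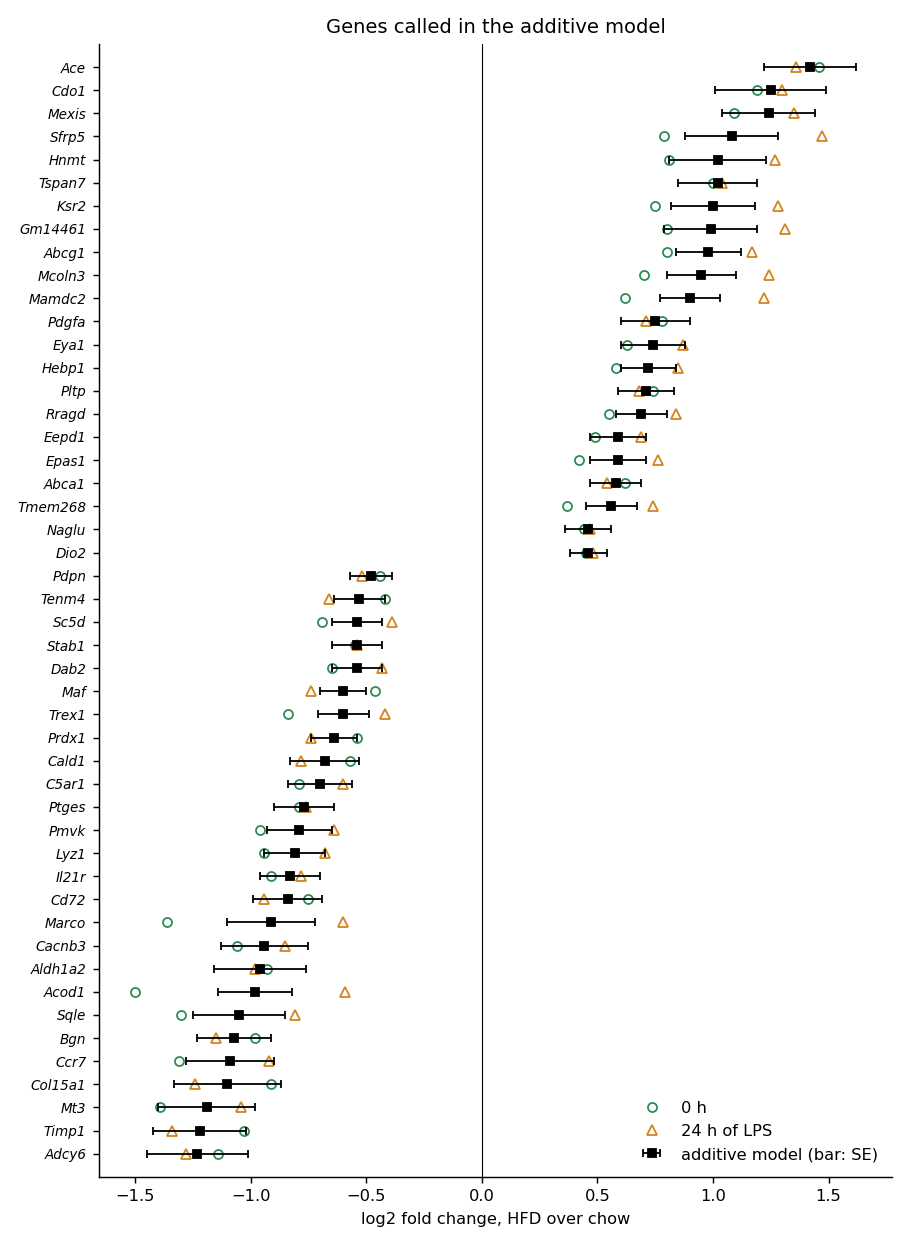
Log2 fold change (HFD over chow) of 48 of the 51 called genes: the additive model with its SE (black squares), 24 h of LPS (triangles) and 0 h (circles). Rpl39l, which was at 0 counts in all HFD 0 h libraries, is among those left out; for 18 of the 22 genes that rose the triangle lies further from 0 than the circle.

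The genes that rose were mostly genes that LPS lowers. In the same model 18 of the 22 (81.8%) were lower and 2 (9.09%) were higher at 24 h than at 0 h, against 19.5% and 20% of all genes tested. Abca1 and Mexis were the 2 that LPS raised. Of the 29 genes that fell in HFD, 6 (20.7%) were lower and 14 (48.3%) were higher at 24 h. The median log2 fold change of the 22 was 0.96 at 24 h and 0.72 at 0 h, and 18 of them were further from 0 at 24 h. That of the 29 was -0.78 at 24 h and -0.93 at 0 h, with 12 further from 0 at 24 h and 17 at 0 h. Since no interaction passed, these are counts of estimates and not tested differences. The design has no 24 h group without LPS, so time and LPS cannot be told apart.

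Other genes that fell include matrix genes. Bgn, the matrix proteoglycan biglycan, had 94.1, 86.6 and 87.2 CPM in HFD libraries and 236, 170 and 123 CPM in chow libraries at 0 h. The 24 h libraries had 140, 116 and 138 CPM in HFD libraries and 409, 250 and 215 CPM in chow libraries. The diets did not overlap, and chow replicate 3 was the chow library nearest to HFD at both times. The common difference was -1.07 ± 0.16 (adjusted p = 0.0108). Timp1, an inhibitor of matrix metalloproteinases, had 180, 123 and 91.4 CPM in HFD libraries at 24 h, against 397, 292 and 309 CPM in chow libraries, and overlapped at 0 h through HFD replicate 3 (19.8 CPM) and chow replicate 3 (18 CPM). Its common difference was -1.22 ± 0.20 (adjusted p = 0.0138), and its span overlaps that of Syn1.

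Aldh1a2, which makes retinoic acid (-0.96 ± 0.20, adjusted p = 0.0425), fell too, with a call in only 2 of the 12 omissions (adjusted p up to 0.135). Named after their values were seen, Col15a1, a basement membrane collagen, was at -1.10 ± 0.23 (adjusted p = 0.0452; called in 4 of the 12 omissions), Cald1, an actin-binding protein, at -0.68 ± 0.15 (0.0483; called in 3) and Pdpn, podoplanin, at -0.48 ± 0.09 (0.0284; called in 7).

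Most tested markers on a list of mesothelium, fibroblasts and endothelium, which includes Bgn itself, were also below 0. Of 21 tested markers 1, Bgn, was called lower and 17 were below 0, with a median of -0.71. The 4 above 0 were the mesothelial markers Krt8 (1.01) and Lrrn4 (0.31) and the endothelial markers Kdr (0.16) and Cdh5 (0.09), none of them called. Their summed level over 25 listed genes was 1042, 1351 and 1799 CPM in HFD libraries and 3355, 1919 and 1159 CPM in chow libraries at 0 h. At 24 h it was 1533, 1522 and 1396 CPM in HFD libraries and 4152, 2890 and 1550 CPM in chow libraries. Chow replicate 1 was the highest and chow replicate 3 the lowest chow library at both times, and 1 of the 25 markers was at 0 in every library. The collagen gene Col1a1 made up much of the sum (309 to 1518 CPM), while the mesothelial marker Msln did not pass 4.05 CPM. Without both libraries of chow label number 1 the difference was -0.77 for Bgn (adjusted p = 0.0531), -1.01 for Timp1 (0.105) and -0.73 for Aldh1a2 (0.358). The part of these cells in the result was not tested, and fewer cells of a type cannot be told apart from less RNA per cell in bulk samples.

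**Figure D5:**
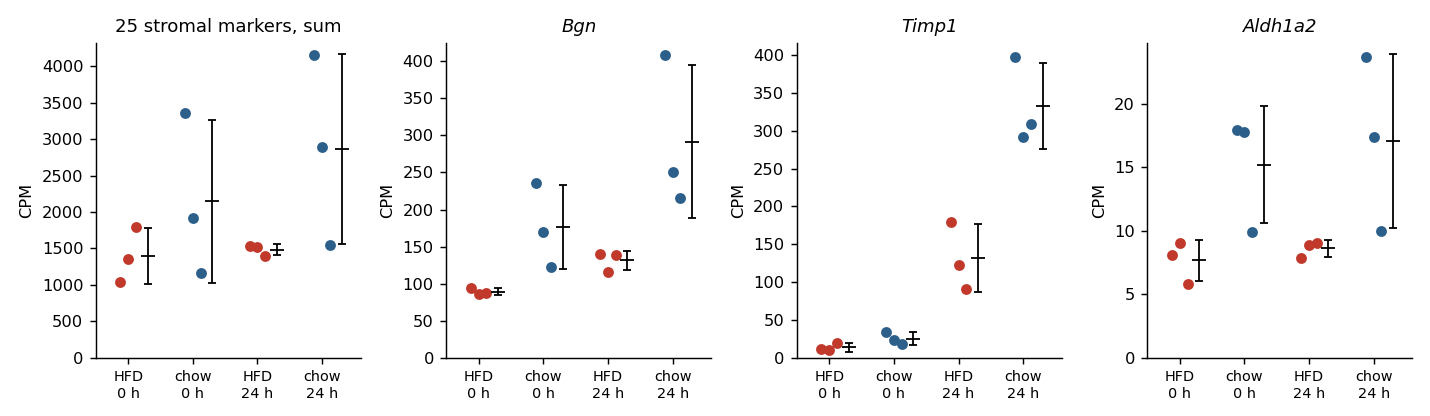
Summed CPM of 25 stromal markers and CPM of Bgn, Timp1 and Aldh1a2 in each of the 12 libraries, HFD in red and chow in blue, with the mean and 1 SD beside each group (n = 3). The chow libraries spread widely, and chow replicate 3 lies nearest to HFD in the marker sum, Bgn and Aldh1a2 at both times.

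The same chow library stood nearest to HFD for other genes that fell. Chow replicate 3 was the lowest chow library at 24 h for 18 of the 29 (62.1%, against 42.1% of all genes). It was the lowest at 0 h for 18 (62.1%, against 32.3%) and at both times for 14 (against 18.1% of all genes). Of the 22 genes that rose, chow replicate 3 was the highest chow library at 24 h for 7 (31.8%, against 40.3% of all genes). It was the highest at 0 h for 15 (68.2%, against 41.2%) and at both times for 3 (against 21.5% of all genes). Abca1 and Sqle held at both times, so chow replicate 3 lay apart from their HFD libraries by definition. It was the chow library nearest to HFD for Abca1 at 0 h and for Sqle at both times, and the furthest for Abca1 at 24 h.

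The remaining genes that fell were Cacnb3, a calcium channel subunit (-0.94 ± 0.19, adjusted p = 0.036), and Adcy6, an adenylate cyclase (-1.23 ± 0.22, adjusted p = 0.0139), which overlapped at 0 h. They lie close to each other on chromosome 15 (Adcy6 98589978 to 98610287, Cacnb3 98628436 to 98644536). Named after their values were seen were the metallothionein Mt3 (-1.19 ± 0.21), the endocytic adaptor Dab2 (-0.54 ± 0.11), the transmembrane protein Tenm4 (-0.53 ± 0.11), which with Cacnb3 and Adcy6 were called in 5 to 10 of the 12 omissions, and Rpl39l, a paralog of a ribosomal protein gene. Rpl39l had 0 counts in the HFD 0 h libraries together and 5 in the HFD 24 h libraries, against 26 in chow 0 h and 51 in chow 24 h libraries, so its fitted fold is not given, and reads shared with the closely related Rpl39 are uncertain.

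Lane and diet were partly confounded at 24 h, where all 3 chow libraries and 1 of 3 HFD libraries carry the lane 8 tag. With the tag as a covariate 0 genes were called in edgeR's test (lowest adjusted p 0.0536, with 1137 genes at an unadjusted p below 0.05). All 51 genes, which were chosen on the same libraries, had an unadjusted p below 0.05, the median ratio of their fold changes with the tag to those without was 0.971, and that of the SE was 1.16. No 0 h library carries the tag, so the diet differences at 0 h given above rest on libraries whose labels name no lane. Chow 0 h replicate 2 and HFD 0 h replicate 3, the shallowest library, carry the same number after the letter S in their labels. No other 0 h libraries share such a number, and what it marks is not stated. The labels do not say whether the 0 h libraries shared a run, and a run effect at 0 h was not tested.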

How the data were processed

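RNA was extracted from peritoneal macrophages with a Qiagen kit and libraries were made with a NuGen Ovation kit, per the labels' protocols. CASAVA 1.8.2 and STAR 2.5.2b were run, with mm10 as the build, per the submitters' processing notes. The sources used here do not give the counting program, its annotation or its use of strand. The authors deposited raw counts for 35745 RefSeq transcripts. Since isoforms share reads, the transcript with the highest mean stood for its gene. Symbols came from RefSeq's gene table (35440 transcripts) and GENCODE's RefSeq table (188), and 117 transcripts without one, 2.335% to 12.02% of a library's counts, stayed in totals and tests. Of 24562 genes, 12641 passed filterByExpr by group.

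Counts were tested with edgeR 4.0.16 in R 4.3.3 (TMM, glmQLFit with robust estimation, glmQLFTest) on diet and LPS time, without interaction. The common biological coefficient of variation was 17.5%. A model of 4 group means gave the diet contrasts at each time and the interaction. The SE is the absolute log2 fold change over the square root of F, so it is not independent of p. In a chi-square test over genes no pair of libraries within a group agreed within sampling noise, so all 12 libraries were kept. Precision beyond replicate spread is limited by depth, and counting limits cover counting error only. The script was tested on simulated data.

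The gene lists (37, with 960 entries, 952 matched), the key genes and the rule for named genes were chosen with earlier results of these data known. The rule named the key genes, the 12 largest differences in each direction among called genes that held, with an official symbol and at least 10 CPM in the higher diet, up to 3 called members of a list (or the 2 with the smallest adjusted p), the 3 smallest interaction p and the 3 largest called differences that overlapped at 1 time. List members named beyond it, with values that did not pass, were chosen after their values were seen. Lists are described by counts and medians, without a set test. Promoters and coordinates are RefSeq's, in GRCm38.p6, and 10032 tested genes had a promoter. The motif for LXR was added after the data were seen, with the known element of Abca1 in mind. Alternatives were other size factors, other filters, isoform sums, DESeq2 1.42.0, limma-voom (limma 3.58.1), a threshold of 1.2-fold, the lane tag, the label number, and each library left out in turn. Leaving out both libraries of a label number was added after the data were seen. A few genes that the rule names are not reported here.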

Additional observations from a re-analysis of the deposited data

How the results depend on the processing

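With median ratio or upper quartile factors, isoform sums, a filter of 1 CPM, no filter, limma-voom and the mean of the contrasts at each time, between 39 and 75 genes were called over both times, against 51. No named gene called in the main test changed direction under any alternative, which for genes whose diets do not overlap the choice of genes fixes. The exceptions among the counts were these. DESeq2 called 308 genes (108 higher and 200 lower in HFD, 142 held at both times, and 66 at 0 h, 43 at 24 h and 9 in the interaction), 50 of the 51 among them. A test for a change above 1.2-fold and the lane tag as a covariate each gave 0 calls in either direction and 0 held, with lowest adjusted p of 0.0609 and 0.0536, and with the tag 0 genes were called at 24 h. Limma-voom called 46 genes lower over both times and 11 at 24 h. Without a filter 23 genes were called at 0 h, 10 at 24 h and 3 in the interaction. The cause of these differences was not tested.

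The labels give the libraries of the 2 times the same numbers within a diet (1, 2 and 3 in chow, 4, 6 and 7 in HFD), without saying what a number marks. Deviations of same-numbered libraries from their group means correlated at 0.0293 to 0.346, above 0.1 for 3 of 6 pairs, and 9 of 12 libraries correlated best with their own number, a hint from the data and not from the design. With means per label number, which leaves 3 against 3, 0 genes were called in either direction and 0 held (lowest adjusted p 0.111, with 1017 genes at an unadjusted p below 0.05, all 51 among them). With the number as a random block 39 were called, 28 held, 12 at 24 h and 3 in the interaction. With the replicate number 1 to 3 as a block 85 were called, 57 lower, and 18 at 0 h.

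Leaving out 1 library, or both libraries of a label number, gave 0 to 368 calls over both times (0 to 67 higher, 0 to 301 lower, 0 to 318 held), 6 to 30 at 0 h, 0 to 77 at 24 h and 0 to 3 in the interaction. The highest counts came without chow label number 3 and the lowest without chow label number 1 or 2. In the shallowest library 3 counts equal 1.27 CPM, so genes near that level could not be compared at 0 h.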
